A study of Sus scrofa with 2 samples.

Results

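LIF, IL6, IL6R and IL6ST encode a pair of related cytokines and the receptor chains that were measured for them, and were followed here through the cell types of the pig endometrium, the lining of the uterus. The members were chosen by gene symbol, and all 4 were found among 10700 distinct symbols and 26881 genes counted in droplet single-cell RNA libraries. The study describes 2 Yorkshire sows, both 3 years old and pregnant by artificial insemination, with 1 sow at day 7 of gestation (its pre-receptive period) and 1 sow at day 13 (its receptive period). Each group is therefore 1 animal and 1 library, which the labels call endometrium1 and endometrium2 and which are called library 1 and library 2 here. The deposited matrices carry the study's abbreviations for the pre-receptive period (library 1) and the receptive period (library 2), but the sample labels do not repeat them, so values are given by library and no day is assigned. With 1 library for each period, the period, the animal and the library cannot be told apart. No test between libraries was possible, and every interval below is a 95% interval that covers counting error only.

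LIF and IL6 are secreted cytokines of one family that signals through a shared membrane chain, IL6ST (also called gp130). IL6 first binds IL6R, which adds specificity but no signalling of its own, and can also be shed from the membrane so that cells without IL6R respond; LIF binds its own chain, LIFR, before it joins IL6ST. The assembled receptors act through JAK kinases and STAT3, with SOCS3 as a feedback inhibitor, and in mice uterine LIF is needed for embryo implantation. No feature symbol matched LIFR or STAT3, so neither was analysed here. Of the LIF receptor only the shared chain was measured, which does not mark the cells that can bind LIF.

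Library 1 held 10045 barcodes with a median of 3431 UMIs (counted RNA molecules) and library 2 held 15093 with a median of 4335. After the filter and the removal of called doublets (11.1% and 16.1% of barcodes), 8928 and 12669 cells remained. They formed 29 clusters, of which 26 were named from marker genes. Every class name below means cells like that type by those markers. Of the 29 clusters, 25 drew over 90% of their cells from 1 library, so most classes are compared between different clusters. Epithelial cells came from cluster 11 in library 1 (195 cells) and from clusters 19, 20, 21 and 28 in library 2 (3231 cells). Ribosomal protein genes took 23.3% of epithelial UMIs in library 1 and 5.74% in library 2, and in stromal fibroblasts 15.2% and 4.82%. A list of 27 immediate early and dissociation stress genes took 0.905% and 2.24% of epithelial UMIs, 0.861% and 1.74% in smooth muscle and pericytes, and 1.87% and 1.49% in macrophages. The epithelial genes ACP5, SLPI, RBP4, KRT8 and KRT18 summed to 46.0 CPM (UMIs of a gene per 1e+06 UMIs of the class) in library 1 stroma and 1894 CPM in library 2 stroma. The sum of these genes in stroma thus differed between the libraries. In library 1 it was uneven outside the epithelium, at 521 CPM in blood endothelium and 487 CPM in lymphatic endothelium. It cannot tell a class's own transcripts from RNA of other cells. In the epithelium itself the sums were 1729 and 33837 CPM, so library 1 epithelium lay below library 2 stroma. As a share of the epithelial level, stroma was at 2.66% and 5.60% and blood endothelium at 30.1% and 5.52%. The part of these 3 measures in the results was not tested. The libraries shared 48 barcode sequences.

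Over all kept cells, each of the 4 genes took a larger share of UMIs in library 2. LIF was at 0.703 CPM in library 1 (26 UMIs) and 4.27 CPM in library 2 (271 UMIs), a log2 ratio of 2.60 (2.02 to 3.24), or 1.99 with cells thinned to 1000 UMIs. IL6 was at 2.22 and 23.2 CPM (82 and 1475 UMIs), a log2 ratio of 3.39 (3.07 to 3.73). IL6R was at 19.8 and 191.7 CPM, a log2 ratio of 3.27 (3.17 to 3.38), and IL6ST was at 199 and 597 CPM, a log2 ratio of 1.58 (1.55 to 1.62). All 4 passed a 2-fold difference, as did 25.8% of the 9716 genes with at least 10 UMIs in the higher direction and 14.7% in the lower. These sums also move with the mix of cells, since epithelial cells made up 2.18% of library 1 and 25.5% of library 2.

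**Figure D1:**
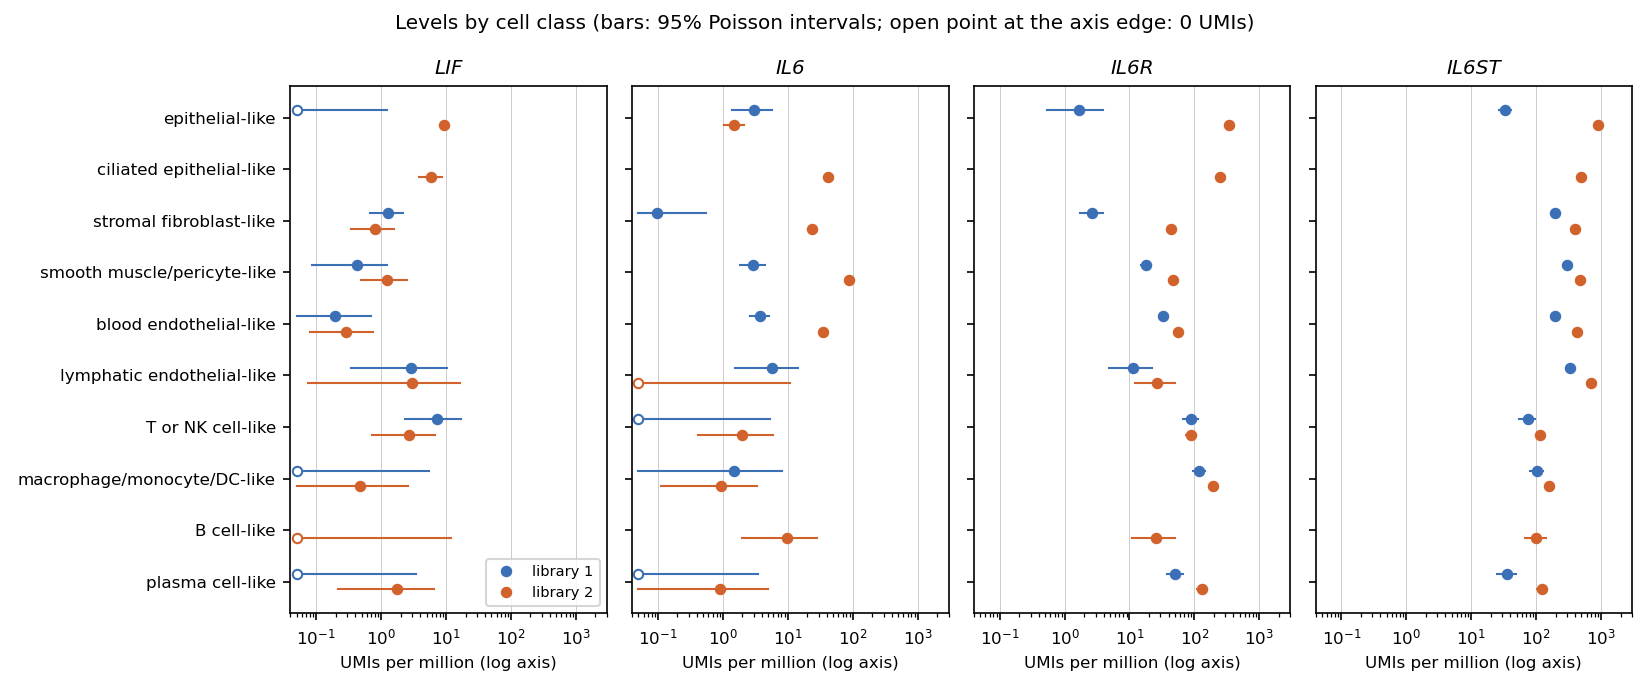
Level of LIF, IL6, IL6R and IL6ST in CPM (log axis) for each cell class, with 1 point per library and bars for the 95% counting interval. Open points at the left edge stand for 0 UMIs, and classes under 50 cells in a library have no point. IL6R and IL6ST in epithelial cells lie far to the left in library 1 (1.68 and 33.2 CPM) and to the right in library 2 (342.6 and 902 CPM), while IL6R in T or NK cells is at 87.4 and 89.8 CPM.

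LIF, the cytokine whose receptor pairs LIFR with IL6ST, was counted mainly in epithelial cells of library 2. That class held 204 of the 271 LIF UMIs of the library (75.3%), against 34.6% of all UMIs, and ciliated epithelial cells held a further 9.59%. In library 1 no LIF UMI fell in 195 epithelial cells, and the library 2 level was 9.28 CPM (8.05 to 10.6). With the library 1 total put at 3 UMIs, the floor used here for a count of 0, the ratio was 9.23-fold. As log2 this was 3.21, and the lower counting limit was 2.89. After thinning to 1000 UMIs the ratio at that floor was -0.68, because the 170 library 1 cells left were too few to bound a level this low. In the epithelium, 23% of the 8704 genes tested were at least 2-fold higher in library 2 and 23.3% at least 2-fold lower. The 26 LIF UMIs of library 1 lay instead in stromal fibroblasts (13 UMIs), T or NK cells (5), smooth muscle and pericytes (3) and, with 1 or 2 UMIs each, endothelial and unnamed cells.

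Within the epithelium of library 2, LIF differed between clusters beyond counting error. Cluster 19, which SLPI (a secreted protease inhibitor) and ACP5 (uteroferrin, a secreted iron-binding phosphatase) lead, held 164 UMIs, 60.5% of the LIF of the library, at 15.8 CPM (13.5 to 18.4). Cluster 28, a group of 48 cells led by UPTI (a uterine plasmin and trypsin inhibitor) and SPP1 (osteopontin, a secreted adhesion protein), had the highest level of any cluster at 59.0 CPM (36.95 to 89.3), from 22 UMIs in 15 cells. Cluster 21 was at 2.78 CPM and cluster 20 at 0.366 CPM with 2 UMIs. LIF was thus spread unevenly, with the SLPI and SPP1 clusters above the other pair.

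LIF was seen in few cells even where it was highest. A LIF UMI was found in 128 of 1381 cells of cluster 19 (9.27%) and in 4.95% of all library 2 epithelial cells (median depth 4447 UMIs), against 0 of 127 B cells (median 2064 UMIs), which allows a share of up to 2.36% by 3 counts and 2.86% by the exact interval. With each cell thinned to 1000 UMIs the epithelial share was 1.07%, under the 2.89% that the exact interval of the B cells then reaches. The 126 B cells left were too few to separate the shares at equal depth. Classes not set as background had upper limits of 0.261% in stroma, 0.423% in smooth muscle and pericytes and 0.221% in blood endothelium. The epithelial interval, with a lower limit of 0.731%, lay above these limits. It overlapped the intervals of the remaining classes. The 160 epithelial cells with LIF had a median of 10414 UMIs and the 3071 without had 4287, so detection went with depth. The stress genes took 2.63% of UMIs in the cells with LIF and 2.20% in those without, and their part in the result was not tested.

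In the other classes LIF counts were low in both libraries. Stromal fibroblasts were at 1.28 and 0.793 CPM (13 and 8 UMIs, log2 ratio -0.69, -2.17 to 0.69), and smooth muscle and pericytes at 0.418 and 1.22 CPM (3 and 7 UMIs, 1.55, -0.58 to 4.13). Both intervals span 0, so no difference was detectable at this depth, and with called doublets kept the stromal ratio was 0.78. T or NK cells had 5 and 4 UMIs, at 7.28 and 2.66 CPM. Of the library 1 stromal UMIs, 11 of 13 were in cluster 0, led by ANPEP (a membrane aminopeptidase) and C3 (complement component 3), at 2.71 CPM.

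**Figure D2:**
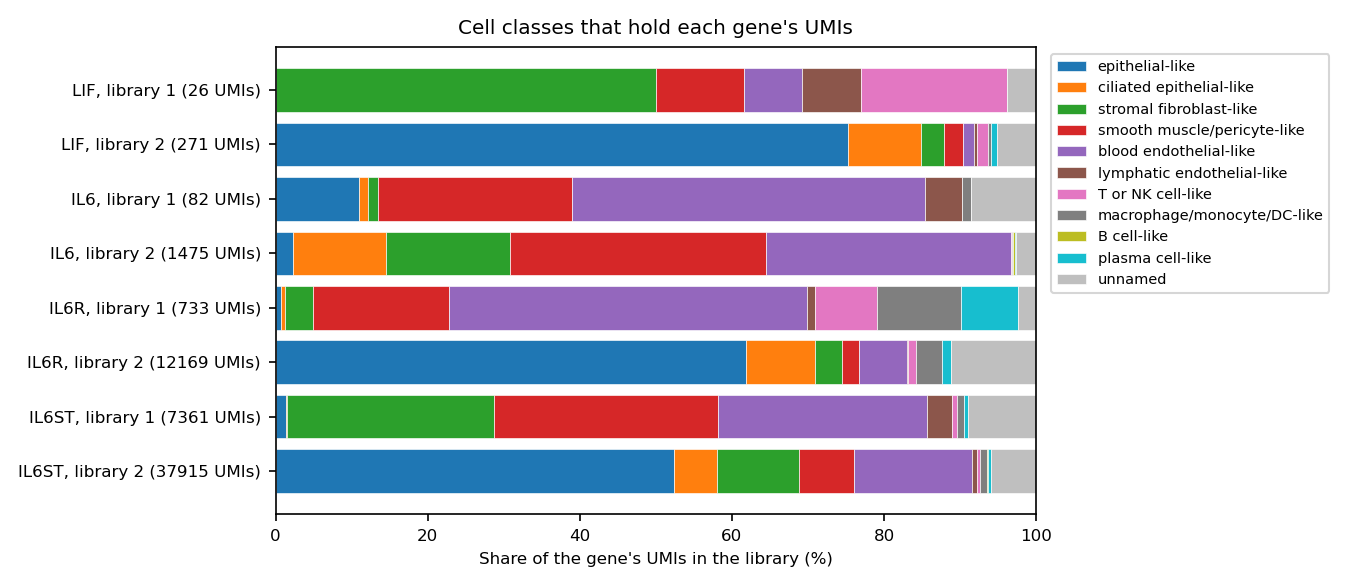
Percent of each gene's UMIs in a library that lie in each cell class. In library 2 LIF is 75.3% epithelial, while the largest parts of IL6 are smooth muscle and pericytes (33.8%) and blood endothelium (32.1%).

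IL6, the ligand of IL6R, had other sources than LIF. In library 2, smooth muscle and pericytes held 33.8% of IL6 UMIs, blood endothelium 32.1%, stromal fibroblasts 16.2% and ciliated epithelial cells 12.3%, whereas the remaining epithelium held 2.24% with 34.6% of all UMIs. The levels were 86.8 CPM (79.4 to 94.8) in smooth muscle and pericytes, 41.6 (35.8 to 48.1) in ciliated cells, 34.5 (31.4 to 37.7) in blood endothelium, 23.7 (20.8 to 26.9) in stroma and 1.5 (1.03 to 2.11) in epithelium. In this order the ciliated and blood endothelial intervals overlap and the other neighbours do not. Macrophages, a usual source of IL6 in inflammation, had 1 UMI in library 1 and 2 UMIs in library 2.

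In library 1 IL6 was low in every class, and its largest parts were 46.3% in blood endothelium and 25.6% in smooth muscle and pericytes. Smooth muscle and pericytes went from 2.93 to 86.8 CPM, a log2 ratio of 4.89 (4.26 to 5.60). Blood endothelium went from 3.68 to 34.5 CPM, a log2 ratio of 3.23 (2.75 to 3.74). Stromal fibroblasts had 1 UMI in library 1 and 239 in library 2, a log2 ratio of 6.33 (5.42 to 13.22) at the floor of 3 UMIs. These 3 mesenchymal and vascular classes were therefore all above a 2-fold difference, as were 22.3%, 22.5% and 27.8% of the genes tested in them. The epithelial values, 3.02 and 1.5 CPM from 9 and 33 UMIs, gave a log2 ratio of -1.007 (-2.10 to 0.24), which spans 0, and it was 0.38 with the libraries clustered separately. Ciliated cells of library 1 numbered 36, with 1 IL6 UMI, and were not compared.

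Single clusters held much of this IL6. In smooth muscle and pericytes of library 2, cluster 17, led by CCL19 (a chemokine that draws T and dendritic cells) and EDNRB (the endothelin receptor B), was at 109 CPM (99.5 to 119.7) with IL6 in 152 of 983 cells. Cluster 27, led by ITIH4 (a plasma protease inhibitor family member), MGP (a matrix calcification inhibitor) and ACTA2 (smooth muscle actin), was at 25.4 CPM (17.99 to 34.9), from 38 UMIs in 10 of 336 cells, of which 1 cell held 15. In blood endothelium, cluster 22, led by ACKR1 (a venular chemokine-binding receptor), was at 50.9 CPM (46.1 to 56.0) and cluster 23, led by CLDN5 (a tight-junction protein), SEMA3G (a secreted semaphorin) and FLT1 (a VEGF receptor), at 10.6 CPM (8.03 to 13.6). In stroma, cluster 25, led by RORB (a nuclear receptor) and C3, was at 38.4 CPM (33.1 to 44.3) and cluster 24, led by NRG1 (neuregulin, a ligand of ERBB receptors), at 9.86 CPM (7.34 to 13.0). Each of these classes thus held a cluster with high IL6 and one with low IL6, with counting intervals that do not overlap. The unnamed cell-cycle cluster 10 was at 41.9 CPM in its 78 cells of library 2. In library 1 the values were lower, at 3.94 CPM in muscle cluster 4 (led by PCP4, a calmodulin regulator, and EDNRB) and 3.83 CPM in endothelial cluster 2 (ACKR1).

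**Figure D3:**
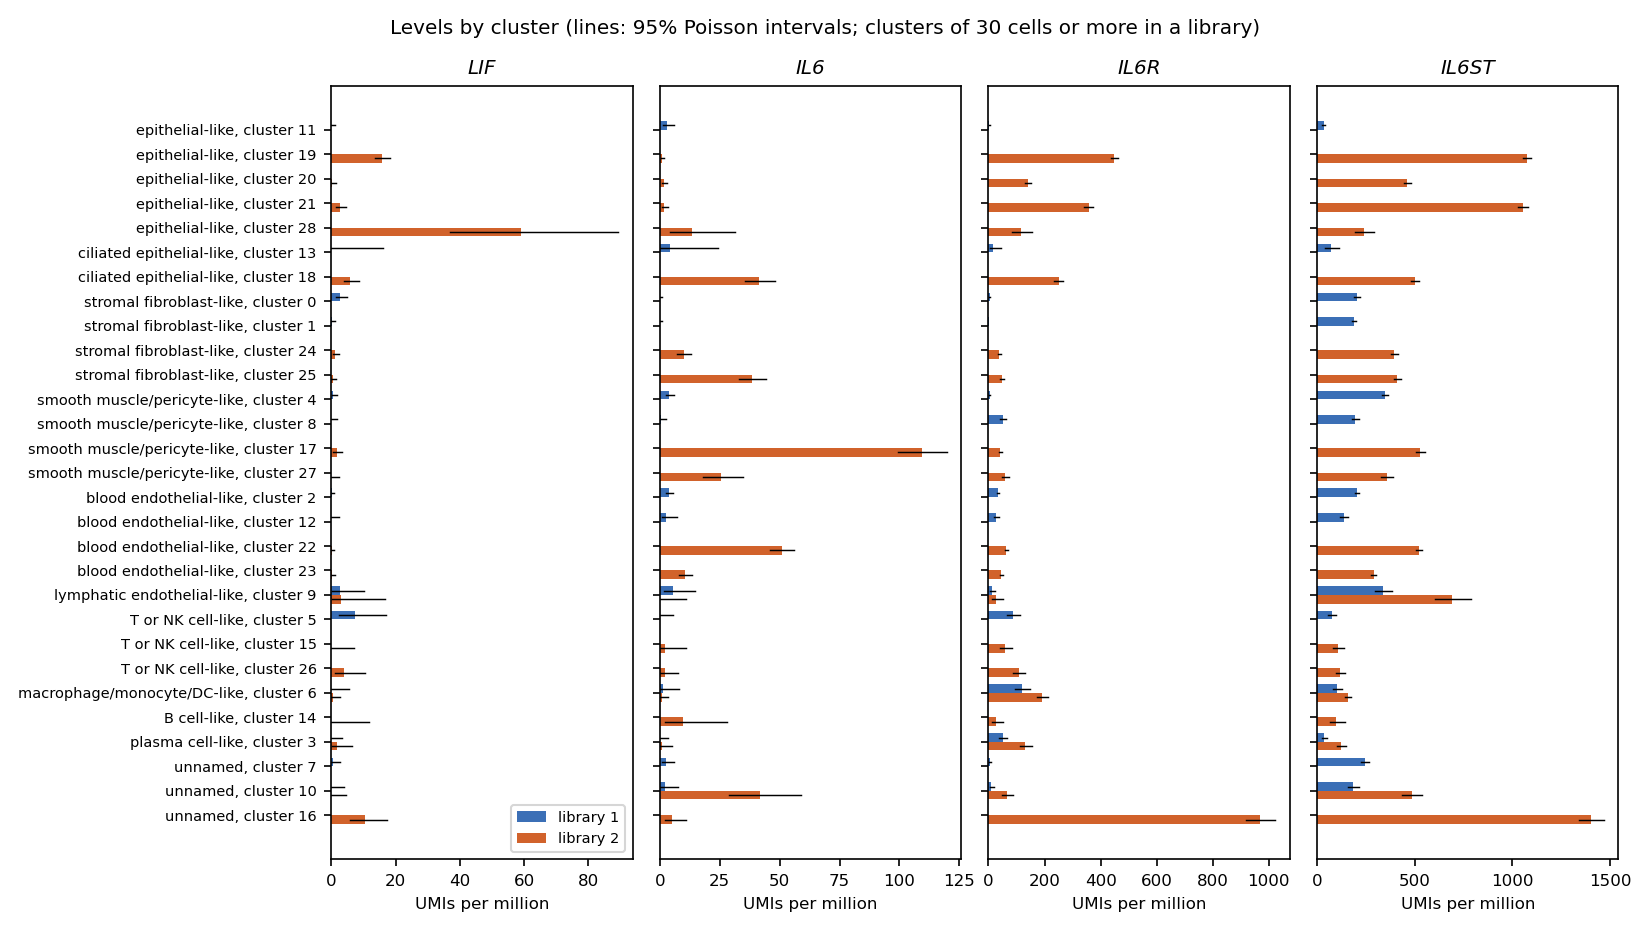
Level of each gene in CPM (linear axis from 0, with its own range for each gene) in every cluster with at least 30 cells in a library, as bars by library with lines for 95% counting intervals. LIF is highest in clusters 28 and 19, IL6 in clusters 17 and 22, and IL6R and IL6ST in the unnamed cluster 16 and in epithelial clusters 19 and 21.

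IL6 was found in a minority of the cells of each source. In library 2 a UMI was seen in 16.5% of ciliated cells, 12.2% of smooth muscle and pericytes, 10.2% of blood endothelial cells and 5.82% of stromal fibroblasts, and after thinning in 4.08%, 5.25%, 2.94% and 1.69%. T or NK cells gave the background, with 0.361% before thinning (median depth 1665 UMIs) and 0.266% after. All 4 sources were above that share. The single cell with the most IL6 held 20 UMIs and lay in smooth muscle and pericytes. Library 1 smooth muscle and pericytes and blood endothelium were at 0.635% and 1.21% unthinned, at median depths of 3014 and 3025 UMIs. Against them stood 0 of 475 T or NK cells (median 1318 UMIs), which allows up to 0.632% by 3 counts and 0.774% by the exact interval. The thinned shares were 0.329% (0.132 to 0.677) and 0.406% (0.195 to 0.745). Both lay under the 0.981% that the exact interval of 0 of 374 T or NK cells reaches, so these cells were too few to separate them. Library 1 stroma, which had not been set as background, had IL6 in 0 of 2169 thinned cells, with an upper limit of 0.170%. The blood endothelial interval lay above that limit, and the interval of smooth muscle and pericytes did not.

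The stress genes were also compared between cells with and without IL6. In library 2 the stress genes took 1.80% with IL6 and 1.73% without in smooth muscle and pericytes, 1.93% and 1.86% in blood endothelium, and 2.47% and 2.47% in ciliated cells. In stroma the values were 2.05% and 1.78%, and in library 1 blood endothelium 1.84% (31 cells with IL6) and 1.43%. The part of the stress genes in the IL6 levels was not tested.

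**Figure D4:**
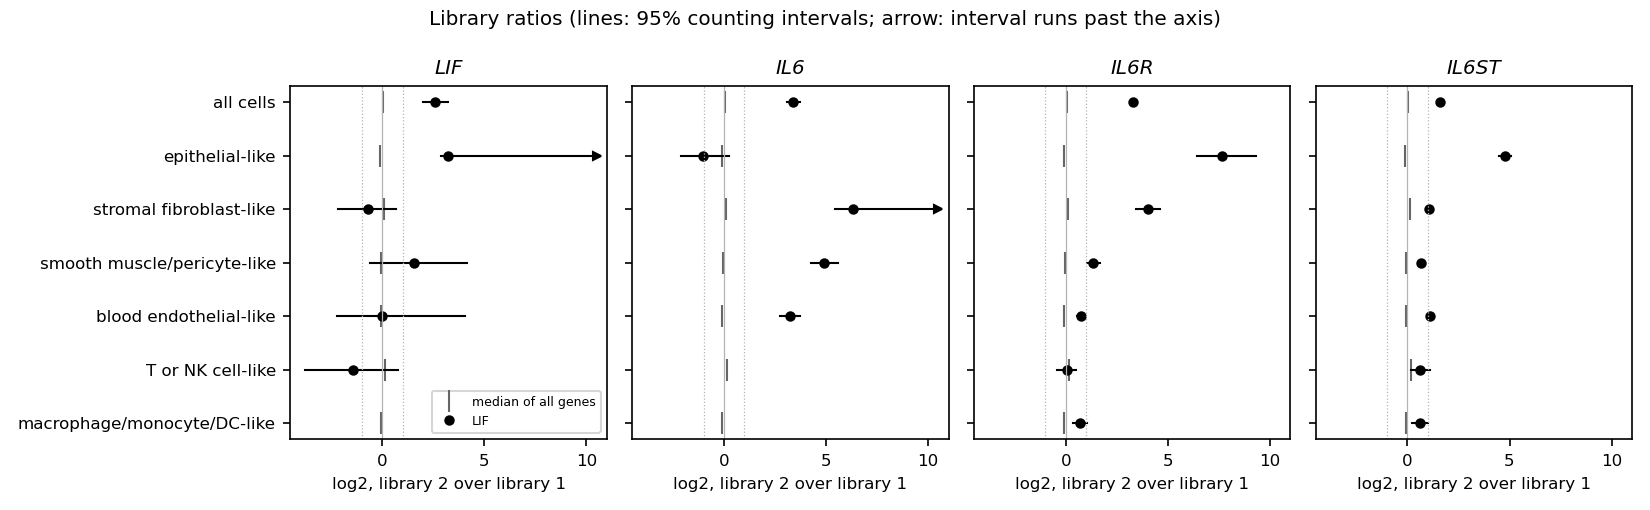
Log2 ratio of library 2 over library 1 for each gene and class with at least 100 cells in both libraries, with 95% counting intervals and the median of all genes tested as a tick. Dotted lines mark 2-fold, counts under 3 UMIs are drawn at the floor of 3 UMIs, and pairs at or under the floor in both libraries have no point. IL6R and IL6ST are furthest from 0 in epithelial cells (7.68 and 4.77), and IL6 in stroma (6.33) and in smooth muscle and pericytes (4.89).

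IL6R, the chain that binds IL6, was in library 2 mainly an epithelial transcript. Epithelial cells were at 1.68 CPM in library 1 (5 UMIs) and 342.6 CPM (334.9 to 350.4) in library 2 (7534 UMIs), a log2 ratio of 7.68 (6.45 to 9.30) or 204-fold. In this class 0.0919% of the genes tested had a higher ratio. The class held 61.9% of IL6R UMIs in library 2 and 0.682% in library 1, where blood endothelium (47.1%), smooth muscle and pericytes (17.9%), macrophages (11.05%) and T or NK cells (8.19%) came first. A UMI was seen in 64.8% of library 2 epithelial cells, or 27.5% after thinning, and in 2.56% and 0% of library 1 epithelial cells. Within library 2 epithelium the clusters ran from 448.7 CPM in cluster 19 through 357.7 in cluster 21 and 141.5 in cluster 20 to 115 (83.4 to 155) in cluster 28, and only the last pair overlapped. Ciliated cells stood between these at 249.7 CPM.

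Immune cells carried IL6R in both libraries. Macrophages, monocytes or dendritic cells were at 119 and 192.6 CPM, a log2 ratio of 0.70 (0.35 to 1.06), with a UMI in 31.2% and 45.1% of cells. T or NK cells were at 87.4 and 89.8 CPM, a log2 ratio of 0.04 (-0.41 to 0.50). With called doublets kept, the T or NK ratio was 1.68 and passed 2-fold. Without the doublets neither immune class reached a 2-fold difference, while 18.1% and 22.4% of genes tested in them were at least 2-fold higher. Plasma cells, the antibody-secreting cells that IL6 is known to sustain, were at 50.5 CPM (37.9 to 65.9) and 131 CPM (111 to 154), in 87 and 95 cells.

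In the vessels and the stroma IL6R was lower than in the epithelium of library 2. Blood endothelium was at 33.4 and 56.3 CPM, a log2 ratio of 0.75 (0.57 to 0.94), and smooth muscle and pericytes at 18.2 and 46.7 CPM, 1.36 (1.05 to 1.67). With called doublets kept these ratios were 1.72 and 2.44. In library 1 most of the muscle value came from cluster 8 (RERGL, MGP), with 107 of 131 UMIs at 50.8 CPM (41.6 to 61.4), and cluster 4 was at 4.73 CPM (3.03 to 7.04). In library 2 cluster 27, also led by MGP, was at 58.9 CPM (47.2 to 72.5), overlapping cluster 8. Cluster 17, led by EDNRB as cluster 4 is, was at 42.8 CPM (36.7 to 49.5), far above cluster 4. The muscle ratio thus joins clusters that differed unequally between the libraries. Stromal fibroblasts were at 2.66 and 43.1 CPM, 4.02 (3.46 to 4.64), and 5.25 with doublets kept. Beside this stood the sum of the 5 epithelial genes: in library 2 stroma these genes reached 5.60% of their epithelial level and IL6R 12.6%. The same shares were 5.95% and 13.6% in smooth muscle and pericytes, 5.52% and 16.4% in blood endothelium, 12.5% and 26.2% in T or NK cells, and 6.09% and 56.2% in macrophages. IL6R thus stood above the marker share in each of them, as it did in the unnamed cells (185% against 24.8%). In B cells IL6R was at 7.46% and the markers at 10.4%, so IL6R did not stand above them there. These shares cannot tell a cell's own IL6R from stray RNA, because the make-up of the stray RNA was not measured. The source of IL6R in these classes was not tested. After thinning, an IL6R UMI was seen in 4.03% of stromal and 3.96% of smooth muscle and pericyte cells of library 2 (16.2% and 15.8% unthinned, median depths 4482 and 3910 UMIs). Smooth muscle and pericytes had been set as the background class for this share, and stroma did not stand apart from them. That class held IL6R UMIs itself, as in cluster 8 of library 1, so it does not give a level without IL6R. The comparison therefore cannot decide on IL6R in stroma.

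IL6ST, the shared signalling chain, was counted in every class with over 50 cells in both libraries. In library 1 smooth muscle and pericytes (302.7 CPM) and lymphatic endothelium (337 CPM, 295 to 382) were highest, blood endothelium and stroma were level at 196 and 196 CPM, and epithelial (33.2 CPM) and plasma cells (35.5 CPM) were lowest with overlapping intervals. In library 2 the epithelium was highest at 902 CPM (890 to 915), followed by lymphatic endothelium at 693 (606 to 788), ciliated cells at 498.7 (478 to 520.1), smooth muscle and pericytes at 482.6 (464.8 to 500.9), blood endothelium at 427.9 (417 to 439) and stroma at 401.8 (389.5 to 414). The ciliated and muscle intervals overlapped, and the epithelium was among the lowest named classes in library 1 and the highest in library 2. It held 52.3% of the IL6ST of library 2, or 34.3% with called doublets kept. The immune classes were low in both libraries, at 74.3 and 114 CPM in T or NK cells and 103 and 158 CPM in macrophages. As shares of the epithelial level in library 2, IL6ST and the 5 epithelial genes were about level in T or NK cells (12.7% and 12.5%). The same held in B cells (10.97% and 10.4%). IL6ST stood above these genes in macrophages (17.5% and 6.09%) and blood endothelium (47.4% and 5.52%). The source of IL6ST in T or NK and B cells was not tested, which also limits the T or NK ratio below.

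The epithelial IL6ST difference was the largest of the 6 classes compared. Its log2 ratio was 4.77 (4.48 to 5.07), against 1.13 (1.06 to 1.20) in blood endothelium, 1.03 (0.96 to 1.11) in stroma, 0.67 (0.59 to 0.75) in smooth muscle and pericytes, 0.62 (0.16 to 1.10) in T or NK cells and 0.62 (0.24 to 1.013) in macrophages. In epithelium 0.804% of genes tested had a higher ratio, whereas in stroma 26.9% did. A UMI was seen in 27.7% and 82.7% of epithelial cells, and in 2.94% and 51.7% after thinning to equal depth. Within library 2 epithelium, clusters 19 and 21 were level at 1075 (1055 to 1095) and 1054 CPM (1028 to 1081), cluster 20 was at 460.9 and cluster 28, the one with the highest LIF, at 238.5 (192 to 293.5). Clusters 19, 21 and 20 came in the same order for LIF and for both receptor chains, though 19 and 21 overlapped for IL6ST. Cluster 28 (48 cells, 22 LIF UMIs) departed from it, with the highest LIF and the lowest values of both chains. For IL6R its interval overlapped that of cluster 20.

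Cluster 16 of library 2 carried no class name but the highest level of both receptor chains. It held 1091 cells with a median of 1089 UMIs, 2.59% ribosomal UMIs and epithelial genes at 12423 CPM. IL6R was at 969 CPM (917.5 to 1023) and IL6ST at 1405 CPM (1342 to 1469) there, with LIF at 10.4 CPM (14 UMIs) and IL6 at 5.21 CPM (7 UMIs). The unnamed cells together held 11.1% of the IL6R of the library with 3.36% of all UMIs.

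In library 2 IL6 and IL6R were placed differently in smooth muscle and pericytes and in epithelium, but not in ciliated cells. IL6 was at 86.8 CPM in smooth muscle and pericytes where IL6R was 46.7, and at 1.5 CPM in epithelium where IL6R was 342.6. Ciliated cells came next after the highest named class for both genes, with IL6 at 41.6 CPM and IL6R at 249.7. Among the named classes with at least 100 cells, LIF and IL6ST were both highest in epithelium, while the unnamed cells had more IL6ST at 1064 CPM. Without LIFR this does not place the LIF receptor. Levels are compared here for 1 gene between classes, not between genes, because counts of different genes need not reflect molecules equally.

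**Figure D5:**
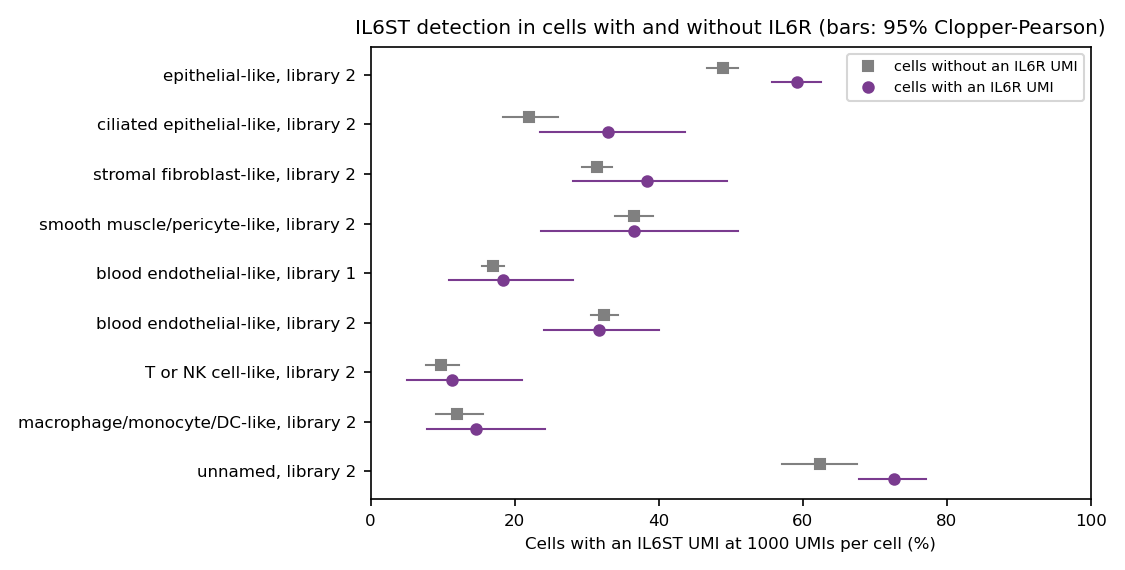
Percent of cells with an IL6ST UMI among cells with and without an IL6R UMI, after thinning to 1000 UMIs, for the classes and libraries drawn, with 95% intervals. In library 2 epithelium the values are 59.2% and 48.9%, and in smooth muscle and pericytes 36.5% and 36.5%.

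Whether the same cells held both chains was read after thinning each cell to 1000 UMIs. In library 2 epithelium 59.2% (55.7 to 62.6) of cells with IL6R had an IL6ST UMI, against 48.9% (46.7 to 51.0) of cells without. Within single epithelial clusters the values were 60.2% (55.6 to 64.6) and 58.8% (55.5 to 62.2) in cluster 19, and 66.8% (60.3 to 72.9) and 58.8% (54.5 to 63.0) in cluster 21. Cluster 20 gave 40.7% (31.4 to 50.6) and 32.1% (28.8 to 35.7). The interval pairs overlapped in all 3 clusters, with the higher value in the cells with IL6R each time, and the difference within clusters was not tested. Smooth muscle and pericytes (36.5% and 36.5%) and blood endothelium (31.7% and 32.4%) showed no gap. Ciliated cells had 33.0% and 22.1% in cluster 18, with overlapping intervals.

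The family was also described from lists of the pathway, which include LIF, IL6, IL6R and IL6ST in their counts and medians. Of 11 family ligands, 9 had a symbol. In stroma 5 of 8 measured ligands were at least 2-fold higher in library 2 and 1 lower (27.8% and 13.1% of all genes), with a median log2 ratio of 2.14 against 0.10 for all genes. In smooth muscle and pericytes the counts were 5 and 1 of 8 (22.3% and 10.3% of all genes), and in epithelium 3 and 1 of 7 (23% and 23.3% of all genes). The following ligands were picked after their values were seen, since they lay under the level set for naming: IL11, a decidualisation cytokine in mice, was at 2.56 and 22.2 CPM in stroma and 1.81 and 28.4 in smooth muscle and pericytes, and OSM, a macrophage cytokine that shares IL6ST, was at 1.47 and 8.88 CPM in macrophages (1 and 19 UMIs). CNTF, a neurotrophic member, lay between 47.2 and 170 CPM in all class sums of at least 50 cells.

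Of 8 family receptors, 5 had a symbol. In epithelium 2 of them were at least 2-fold higher, IL6R and IL6ST themselves, and 1 was lower (23% and 23.3% of all genes). The latter, named after its value was seen, was IL31RA, a chain of the IL31 receptor, at 16.1 and 1.73 CPM. IL11RA, the IL11 receptor, was at 136 and 213 CPM in epithelium and 89.3 and 71.2 CPM in stroma. IL27RA, an IL27 receptor chain that also pairs with IL6ST, was highest in T or NK cells at 94.7 and 135 CPM. Among the sheddases, ADAM17, which can cleave IL6R from the membrane, was at 51.4 and 146 CPM in macrophages and 25.2 and 77.9 CPM in stroma, and in epithelium at 16.1 and 19.5 CPM. ADAM10, a related sheddase, was highest in blood endothelium at 301 and 380 CPM.

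Downstream of the receptors, JAK2, a kinase bound to IL6ST, was over 2-fold higher in library 2 in all 6 classes compared, where between 18.1% and 27.8% of all genes tested were. It went from 108 to 559 CPM in stroma, from 43.9 to 397 in blood endothelium and from 11.1 to 96.4 in epithelium. JAK1, another kinase bound to IL6ST, was at 134 and 309 CPM in epithelium and 285 and 971 in stroma, but at 416 and 449.8 in smooth muscle and pericytes. STAT5A, a transcription factor of cytokine receptors, was at 20.9 and 10.3 CPM in stroma. GRB2, an adaptor, stayed within 2-fold in all 6 classes, at 117 and 117 CPM in epithelium.

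The inhibitors of the pathway were mostly higher in library 2 outside the T or NK cells. At least 2-fold higher were 7 of 9 in epithelium (median log2 ratio 1.88 against -0.10 for all genes), 7 of 9 in stroma, 5 of 9 in smooth muscle and pericytes, 5 of 9 in blood endothelium and 5 of 9 in macrophages, with 1 lower in blood endothelium. The shares of all genes tested at least 2-fold higher were 23%, 27.8%, 22.3%, 22.5% and 18.1% in the same order. In T or NK cells 2 were higher and 4 lower (22.4% and 9.22% of all genes). SOCS3, the feedback inhibitor that binds IL6ST, was at 14.1 and 93.6 CPM in epithelium, 116 and 474 in stroma, 188 and 680 in smooth muscle and pericytes, and 170 and 71.1 in T or NK cells. SOCS2, an inhibitor better known from growth hormone signalling, was at 45.8 and 1022 CPM in stroma. CISH, a STAT5-induced inhibitor, was at 181 and 37.9 CPM in T or NK cells and 6.1 and 25.2 in stroma. SOCS3 is also in the stress list, so the counts and UMI shares of that list include it.

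Genes known as STAT3 targets gave a mixed count. At least 2-fold higher were 6 of 12 in epithelium (3 lower), 6 of 12 in stroma (0 lower), 5 of 12 in smooth muscle and pericytes (1 lower) and 4 of 12 in blood endothelium (0 lower). All genes tested gave 23%, 27.8%, 22.3% and 22.5% higher and 23.3%, 13.1%, 10.3% and 11.5% lower in these classes. CEBPD, a transcription factor of the acute phase response, was at 9.38 and 128 CPM in epithelium, 26.7 and 1067 in stroma, 28.1 and 1063 in smooth muscle and pericytes, and 46.3 and 1201 in blood endothelium. BCL6, a transcriptional repressor, was at 1.68 and 14.8 CPM in epithelium. MYC, a growth regulator, was at 26.1 and 6.46 CPM in epithelium but 86.8 and 276 in smooth muscle and pericytes. The list therefore did not move one way within the epithelium.

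IL1 and TNF signals, which are known inducers of IL6, were also counted. IL1A, a cytokine released by damaged or activated cells, was at 61.7 and 389 CPM in macrophages, and IL1B, its secreted relative, at 86.7 and 190 CPM there. TNF was at 824 and 299 CPM in T or NK cells. TNFAIP3, an NF-kB feedback enzyme, was at 14.1 and 300 CPM in epithelium and 14.5 and 130 CPM in smooth muscle and pericytes, and NFKBIA, the inhibitor that retains NF-kB in the cytoplasm, at 101 and 699 CPM in the latter. In the IL6 sources of library 2, 6 of 10 measured genes of this list in smooth muscle and pericytes, 7 of 11 in stroma and 5 of 11 in blood endothelium were at least 2-fold higher and 0 were lower. The stress list had 14, 12 and 3 of 27 higher in these classes. All genes tested gave 22.3%, 27.8% and 22.5%, so the stress count in blood endothelium lay below the share of all genes. Higher counts of the inducer list were not particular to the IL6 sources. They were 6 of 12 in epithelium (2 lower), 5 of 13 in macrophages (0 lower) and 1 of 9 in T or NK cells (2 lower). The stress list had 18, 0 and 0 of 27 higher in these classes and 4, 1 and 6 lower. All genes tested there gave 23%, 18.1% and 22.4% higher and 23.3%, 14.7% and 9.22% lower.

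The genes whose pattern was most like each member were ranked by Pearson r of log2(CPM + 10) over 18 sums of a class in a library. LIF was most like HMOX2 (0.79), IL6 most like KAZN (0.87), IL6R most like MAG (0.81) and IL6ST most like ITPKC (0.89), out of 8667 genes. The sums share 2 libraries and their depth, and of the 5 nearest genes of each member none was among its 5 nearest within library 1 alone. Within library 2 alone 0, 1, 0 and 1 of the 5 were kept for LIF, IL6, IL6R and IL6ST. With a pseudocount of 1 CPM the counts were 2, 2, 3 and 3.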

How the data were processed

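Droplet single-cell RNA was counted in 2 libraries, 1 per sow. The authors deposited raw UMI counts per gene and barcode. The count software is Cell Ranger, as version 6.1.0 per the file headers and as version 2.1.1 per the submitters' processing notes. No source used here gives the genome build or annotation. Of 26881 features, 10753 carried a symbol. A barcode needed 500 UMIs and 200 genes (5 and 1 were removed), called doublets were taken out with Scrublet, run in scanpy 1.11.5, and both libraries were clustered together (2000 variable genes, 30 components, Leiden resolution 1). Clusters were named from 163 markers with a symbol. UMIs were summed per class and library as CPM, with exact Poisson intervals for levels, exact binomial (Clopper-Pearson) intervals for shares and conditional binomial intervals for ratios. Counts under 3 were set to a floor of 3 in ratios. Shares of cells were also taken after thinning to 1000 UMIs, which left out 528 and 892 shallower cells. Ratios needed 100 cells in both libraries.

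Pathway genes were named if they reached 50 CPM in at least 1 class, at most 6 per list and class, with the largest ratios first. The members and lists were chosen with earlier results of these data known. The counting steps were tested on simulated data. Alternatives were a stricter cell filter, doublets kept, resolution 2, separate clustering, cells weighted equally, thinning, TMM scaling (edgeR 4.0.16), and other list minimums and pseudocounts. Leaving out unnamed clusters and shared barcodes was added after seeing the data. The result of 1 pathway gene, and the count of the list that holds it, are not reported here.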

Additional observations from a re-analysis of the deposited data

How the results depend on the processing

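No paired analysis was possible because each group had 1 library. Of 133 log2 ratios within classes recomputed under the alternatives, 112 stayed within counting error, 19 moved and 2 reversed. Reversed were LIF in epithelium (-0.68 after thinning to 1000 UMIs, where 0 UMIs in 170 cells of library 1 were set to the floor of 3) and IL6 in epithelium (0.38 with the libraries clustered separately; the cause was not tested). Over all cells, thinning gave log2 ratios of 1.99 for LIF, 3.05 for IL6R and 1.33 for IL6ST. Weighting cells equally gave 3.16 for IL6R and 1.39 for IL6ST, and leaving out unnamed clusters gave 3.07 for IL6R.

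The shares held by a class in library 2 moved more. The epithelial share of LIF was 66.0% after thinning and 53.4% with doublets kept. The smooth muscle and pericyte share of IL6 was 38.3% after thinning and 23.7% with separate clustering, which called 162 of its 1330 cells stromal. The blood endothelial share of IL6 was 25.8% with doublets kept. The epithelial share of IL6R was 63.2% with the stricter filter, 42.2% with doublets kept, 59.0% at resolution 2, 46.5% after thinning and 69.7% without unnamed clusters. That of IL6ST was 34.3% with doublets kept, 51.8% with separate clustering, 50.2% at resolution 2, 39.1% after thinning and 55.7% without unnamed clusters. Called doublets of library 2 held 23.0% of its LIF, 26.7% of its IL6, 26.7% of its IL6R and 28.1% of its IL6ST UMIs. List counts stayed within 1.5 times in 107 of 112 cases. The genes most like each member moved in 12 of 12 cases. Depth limits LIF most, with 26 UMIs in library 1.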
